A study of Mus musculus with 29 samples.

Results

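The most open chromatin of the embryonic mouse cortex was described through 10790 of 205908 numbered regions (5.24%). They were chosen by their measured signal, as those whose CPM averaged 20 or more over 17 ATAC-seq libraries. CPM here is the deposited signal of a region, on a scale where the sum over all regions ran from 988155 to 1045790 per library, and the average was taken over 2 to the power of the deposited log2 values. All libraries were cortex of mouse embryos at E14.5 from a MYT1L knockout line, a model of MYT1L syndrome. They comprised 6 WT libraries, 5 Het libraries with 1 mutant allele and 6 Hom libraries with 2 mutant alleles. Litter 1 gave 4 WT, 3 Het and 4 Hom libraries, and the remaining 2 per genotype were from litter 2. Sources used here do not state sex, strain or the form of the mutant allele. The labels do not say that each library is a separate embryo, so p-values measure the spread between these libraries. Because the values chose the regions by level, their level is a description. The rule did not use the genotype labels, but it averaged the same libraries that the genotype comparisons use. A region could therefore enter through its WT and Hom values while all its Het libraries lay under 20 CPM. The genotype comparisons are thus not independent of the rule.

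ATAC-seq inserts adapters into DNA that is free of nucleosomes, so the signal of a region reflects how accessible it is. In neural tissue the strongest sites are typically promoters of widely used genes, binding sites of architectural proteins and strong enhancers, while most other open sites are weaker and differ between cell types. MYT1L is a zinc finger transcription factor of neurons, known for holding down non-neuronal programmes while neurons mature. In bulk tissue, fewer open cells and less opening per cell cannot be told apart. The files do not pair the region numbers with genes or coordinates, so regions are named by number, no sequence is shown, and the genotypes rest on the labels alone, since the Myt1l locus cannot be found by number. Their widths are unknown too, so a higher CPM may be a wider region and levels are compared between genotypes, not between regions.

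The 10790 regions were a small part of the list and a large part of the signal. Of the summed CPM of a library, they held 40.2% ± 0.540 in the 6 WT libraries (mean ± SD), 39.2% ± 0.386 in the 5 Het libraries and 39.9% ± 0.416 in the 6 Hom libraries. With the regions for each genotype chosen on the libraries of the other genotypes alone, so that each genotype had its own set, the shares were 39.71% in WT, 39.51% in Het and 39.8% in Hom. The gap between WT and Het was smaller in that setting, but the shares are of different sets, whose sizes are not given here. Whether the choice of regions made the gap was not tested. Most lay not far above the rule. The lower quartile of their mean level was 24.1 CPM, the median 30.6, the upper quartile 42.4 and the 95th percentile 72.8, against a median of 1.67 CPM over all regions. By level, 7669 lay between 20 and 40 CPM, 2736 between 40 and 80, 365 between 80 and 160, and only 20 above 160. At the edge of the rule, all_e14_peak_41605 and all_e14_peak_138225 were just inside, at 20.001 CPM each, and all_e14_peak_137761 and all_e14_peak_120567 just outside, at 19.995 and 19.994 CPM. In single libraries between 118 and 915 of the 10790 regions were under 20 CPM, and between 98 and 757 other regions reached it.

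The region with the highest level was all_e14_peak_129882, at a mean of 3650.3 CPM. It ranged from 3104 to 3725 CPM in WT with a median of 3352. The 5 Het libraries were at 3826, 3869, 4159, 4214 and 4267 CPM, all above every WT library. Hom ranged from 3221 to 3858 CPM with a median of 3661 and overlapped both. The second, all_e14_peak_219920, ranged from 2010 to 2454 CPM in WT (median 2270.2), from 2685 to 3219 in Het (median 2979.7) and from 2200 to 2677 in Hom (median 2535). Every Het library was again above every WT library, and here also above every Hom library. The third, all_e14_peak_100018, showed no such order, with 1336 to 1611 CPM in WT, 1198 to 1460.5 in Het and 1285 to 1558 in Hom.

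The most open regions were measured with the least relative scatter. Their median SD between libraries of a genotype was 0.0949 log2, about 6.80%, against 0.250 log2 over the 138760 regions that averaged 1 CPM or more and so entered the tests. Regions between 10 and 20 CPM lay between, at 0.130 log2. An SD over 0.2 log2 occurred at 20 of the 10790 regions (0.185%) and at 64.7% of all tested regions. Values lay on a grid whose step was 0.0501 to 0.0507 CPM, so the rule of 20 CPM corresponds to 395 to 399 steps. The authors' adjustment also took variation out of these values, so the scatter is what is left after it. The sequencing depth behind the values is unknown.

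**Figure D1:**
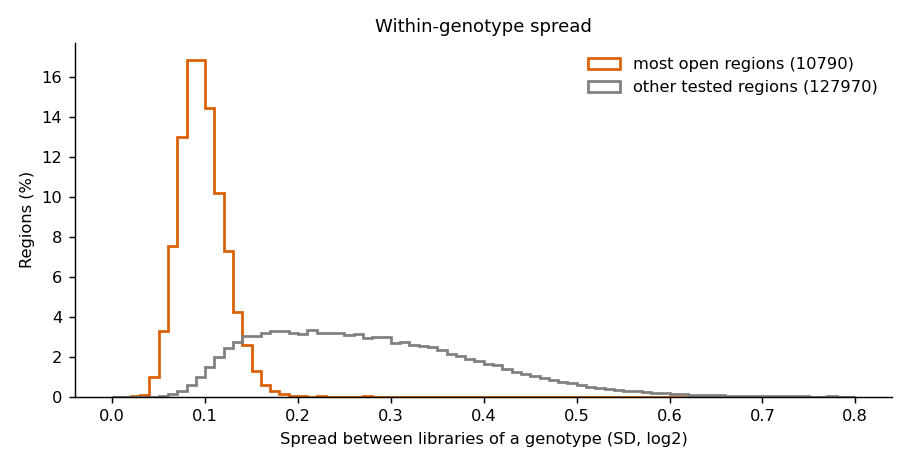
Histogram of the spread between libraries of a genotype (x axis, SD in log2 units, 11 degrees of freedom; y axis, percent of regions) for the most open regions and for all other tested regions. The most open regions pile up around a median of 0.0949 log2, while the others spread widely to higher values.

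A few of these regions departed from the narrow scatter, and the most variable ones had numbers at the end of the list. The region all_e14_peak_235842 had the largest SD, 1.27 log2, and ranged from 9.37 to 35.7 CPM in WT, from 3.01 to 34.3 in Het and from 5.17 to 55.5 in Hom. The second, all_e14_peak_235820 (SD 0.735 log2), ranged from 16.8 to 41.9 CPM in WT, from 11.02 to 46.1 in Het and from 16.4 to 63.2 in Hom. In both, Het replicate 27 was the lowest and Hom replicate 6 the highest of the 17 libraries, and the genotypes overlapped. Their deviations from the genotype means moved together (r = 0.95 across the 17 libraries, a description). Regions numbered 235733 and 235742 followed all_e14_peak_235842 at r of 0.93 each, and so, at r = 0.91, did all_e14_peak_149408, which is far from the end of the list and has an SD of 0.0482 log2. Neither of the 2 most variable regions differed between Het and WT in limma (adjusted p = 0.782 and 0.842).

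Het libraries had slightly less signal than WT at the great majority of the most open regions. The median over the 10790 regions was 31.4 CPM ± 0.818 (SD) in 6 WT libraries, 29.6 ± 0.621 in 5 Het libraries and 30.7 ± 0.597 in 6 Hom libraries. Het libraries ranged from 28.7 to 30.3 CPM and WT libraries from 30.1 to 32.2, so the groups overlapped, through WT replicate 13. Per region, the median Het minus WT difference was -0.08 log2, a change of -5.51%, against -0.01 log2 over all tested regions. It was below 0 at 9491 of 10790 regions (88.0%), against 52.8% of all tested regions. Het had the lowest mean of the 3 genotypes at 8338 regions (77.3%, against 38.9% of tested regions) and WT the highest at 6984 (64.7%, against 36.1%). Within litter 1 alone the median difference was -0.09 log2 and in litter 2 alone -0.05 log2. The difference is relative to a scale on which all libraries have an upper quartile of 4.61 CPM. When the libraries were given equal distributions by quantile normalization, the median went to -0.0033 log2. With each library's trend against level taken out it went to -0.00023 log2.

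**Figure D2:**
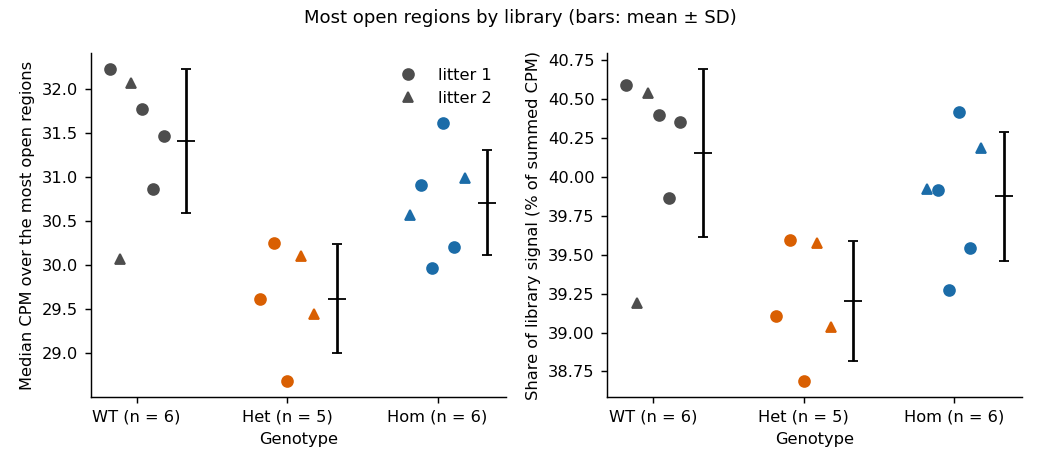
Left, median CPM over the most open regions in each library; right, their share of the summed CPM of the library in percent, by genotype on the x axis. Points are libraries, circles litter 1 and triangles litter 2, and bars give the mean ± SD. All Het libraries lie at or below 30.3 CPM in the left panel, where only WT replicate 13 among WT libraries reaches as low.

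The size and sign of this shift depended on the level. Between 1 and 5 CPM the median Het minus WT difference was 0.03 log2, and 45.0% of 90677 regions were below 0. It was -0.02 log2 between 5 and 10 CPM and -0.06 log2 between 10 and 20 CPM, still below the rule. It was -0.08 log2 between 20 and 40 CPM and between 40 and 80 CPM, and -0.07 log2 between 80 and 160 CPM, where 350 of 365 regions (95.9%) were below 0. Above 160 CPM it was 0.13 log2, and 9 of 20 regions were below 0. The Hom minus WT differences in the same 4 groups of the most open regions were -0.03, -0.02, -0.02 and 0.07 log2. Both comparisons use the same WT libraries.

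**Figure D3:**
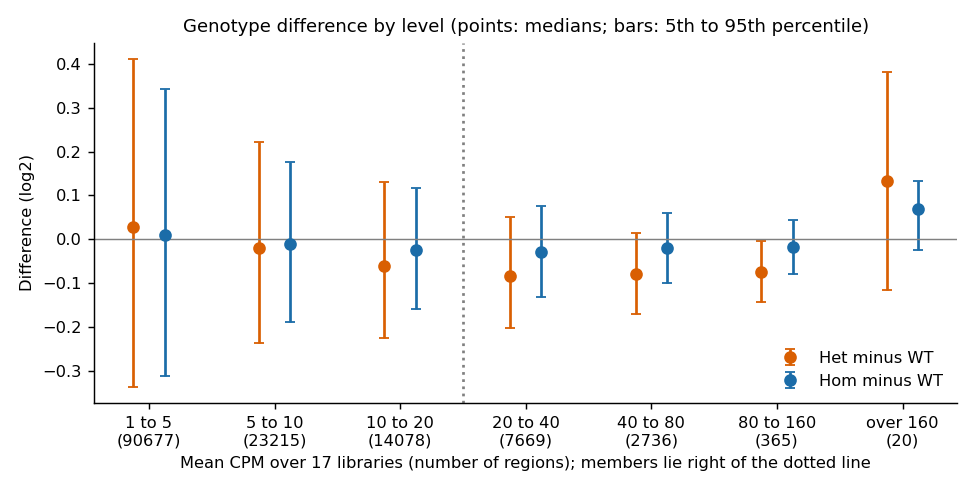
Median difference from WT (y axis, log2; bars from the 5th to the 95th percentile of regions) by mean level in CPM on the x axis, with the number of regions in brackets, for Het and Hom. Het lies below 0 from 20 to 160 CPM, at -0.08 to -0.07 log2, and above 0 for the 20 regions over 160 CPM.

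Of the 10790 regions, 32 rose and 56 fell in Het at an adjusted p under 0.05. The test was limma, fitted over all 138760 tested regions with the 3 directions that the adjustment had removed as covariates. Over all tested regions 0.0512% were called higher and 0.0713% lower. The median SE was 0.06 log2 at the most open regions and 0.16 log2 over all tested regions, so a change of the same size passed more easily here. No difference exceeded 0.5 log2: the rises ran from 0.21 to 0.43 log2 and the falls from -0.38 to -0.22 log2. The rises had a median level of 53.8 CPM and reached 3650.3 CPM, while the falls had a median of 33.7 CPM and reached no higher than 55.2 CPM. In complete separation, every Het library lay below every WT library at 800 of the regions (7.41%, against 1.53% of all tested regions). Every Het library lay above every WT library at 33 (0.306%, against 0.937%).

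The split between rises and falls depended on scale and on how the variance was estimated. Quantile normalization gave 42 rises and 7 falls (0.0620% and 0.0166% of all tested regions), and removal of the level trend gave 48 and 3 (0.0656% and 0.0137%). Of the 88 regions called in the reported fit, 28 were still called after quantile normalization and 35 with the level trend removed. The other calls in those settings were new regions. Without the removed directions as covariates, which counts 3 residual degrees of freedom too many, there were 41 rises and 535 falls (0.400% and 0.819%). A robust variance prior, added after the data were examined, gave 16 rises and 74 falls (0.0454% and 0.0872%). Without a trend of the variance on level, and with each region's own spread in place of a shared prior, limma called 0 regions in either direction (0% of all tested regions each). In the reported fit 3268 of the 10790 regions (30.3%) had an unadjusted p under 0.05, against 11.5% of all tested regions. With each region's own spread there were 2965 (27.5%, against 10.5%). Without the variance trend there were 1079, a share near the 9.55% of all tested regions. Most of the excess was absent on the 2 scales that equalise levels by construction. Its loss there does not tell where it comes from, which was not tested. Quantile normalization left 1305 (12.1%, against 9.32%), and removal of the level trend left 1303 (12.1%, against 9.28%). A filter at 5 CPM in place of 1 CPM gave 42 rises and 293 falls (0.297% and 1.11% of the regions then tested), and no filter gave 30 and 28 (0.0209% each). Single libraries moved the count of 88, and the share called over all tested regions, given in brackets, moved with it. The count went to 268 (32 higher, 236 lower) without WT replicate 13 (0.349%), to 58 without WT replicate 10 (0.0894%) and to 43 without WT replicate 43 (0.0591%). It went to 42 (28 higher, 14 lower) without Het replicate 34 (0.0483%) and to 58 without Het replicate 64 (0.0699%). Leaving out a Hom library, which changes the shared estimate of spread, gave 148 without replicate 40 (0.226%), 146 without replicate 54 (0.221%) and 165 without replicate 65 (0.276%). Litter 2 alone, with 2 libraries per genotype, gave 12 rises and 0 falls (0.0187% and 0.00216%). It was fitted without the removed directions as covariates, so its counts are not like those of the reported fit. There 7.24% of the most open regions had an unadjusted p under 0.05, near the 7.05% of all tested regions.

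The largest fall was at all_e14_peak_37620. WT libraries ranged from 23.8 to 30.5 CPM with a median of 28.04, the Het libraries were at 19.5, 20.6, 21.4, 22.2 and 22.7 CPM, and Hom libraries ranged from 22.1 to 24.8 CPM. Het and WT did not overlap, and Hom lay between them with overlap at both ends. The difference was -0.38 log2 (SE 0.07, limma adjusted p = 0.00125). At all_e14_peak_145517, WT libraries ranged from 21.8 to 25.9 CPM with a median of 25.2, Het libraries were at 17.7, 17.9, 19.3, 20.4 and 20.98 CPM, and Hom libraries ranged from 18.9 to 22.4 CPM. Het was again below WT in all libraries, by 0.36 log2 in the mean (-0.36, SE 0.07, limma adjusted p = 0.00556). Both regions were called after quantile normalization (limma adjusted p = 0.0116 and 0.0380). Neither was called in litter 2 alone, without the variance trend or without moderation, and in litter 1 alone all_e14_peak_145517 was not (limma adjusted p = 0.0700). Over 30 alternatives the adjusted p ran from 0.000133 to 0.592 at all_e14_peak_37620, with 27 calls, and from 0.00112 to 0.523 at all_e14_peak_145517, with 26 calls.

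The largest rise was at all_e14_peak_230241. WT libraries ranged from 17.8 to 25.4 CPM with a median of 21.6, Het libraries were at 26.7, 27.4, 27.6, 31.3 and 32.5 CPM, and Hom libraries ranged from 19.3 to 25.7 CPM. All 5 Het libraries were above all others. The difference from WT was 0.43 log2 (SE 0.07, limma adjusted p = 0.000327). At all_e14_peak_232652, WT libraries ranged from 37.7 to 49.4 CPM with a median of 42.97, and Het libraries were at 52.02, 57.01, 58.6, 60.7 and 62.3 CPM. Hom libraries ranged from 44.4 to 53.5 CPM, overlapping the lowest Het library. The difference from WT was 0.43 log2 (SE 0.06, limma adjusted p = 1.08e-06). Over 30 alternatives the adjusted p ran from 4.67e-07 to 0.564 at all_e14_peak_230241, with 27 calls, and from 5.76e-12 to 0.348 at all_e14_peak_232652, with 28 calls. Neither was called without the variance trend or without moderation, and all_e14_peak_230241 was not called in litter 2 alone, at 0.29 log2 (limma adjusted p = 0.564).

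**Figure D4:**
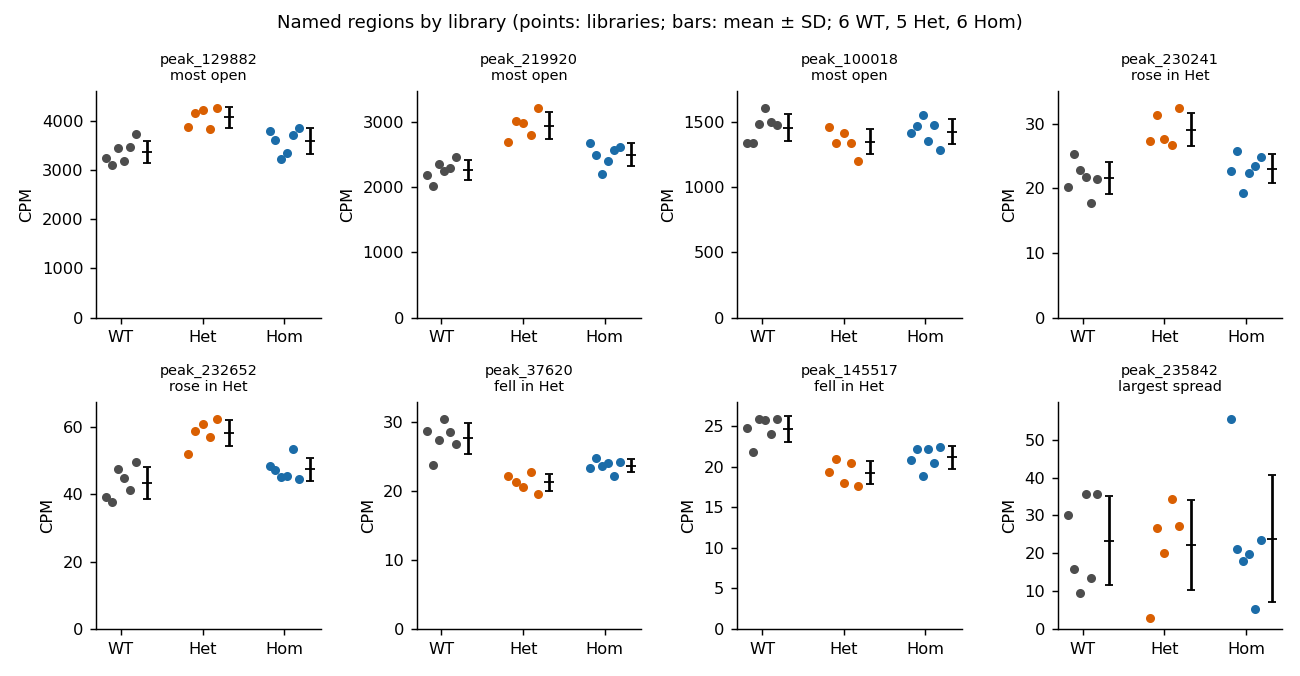
CPM (y axis, from 0) in each library by genotype for the 3 regions with the highest level, the 2 largest rises and 2 largest falls in Het, and the region with the largest spread. Points are libraries and bars the mean ± SD. Het stands apart from WT without overlap in all panels except all_e14_peak_100018 and all_e14_peak_235842.

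The rises in Het were concentrated among the very highest regions and in one stretch of region numbers, while the falls were scattered. These groupings were found after the values were seen and are a description. Of the 15 regions with the highest level, 10 were called higher in Het. The region all_e14_peak_129882 rose by 0.28 log2 (SE 0.03, limma adjusted p = 1.79e-09) and all_e14_peak_219920 by 0.38 log2 (SE 0.03, limma adjusted p = 2.11e-14). In every library they were the highest region and the next. Quantile normalization therefore gives each the same value in all libraries and cannot show a difference between genotypes there. These SEs lean on a prior with 77.5 degrees of freedom, whose variance follows a trend on level fitted over all tested regions. From the regions' own spread the SEs were 0.06 and 0.07 log2. By an exact permutation test over libraries, two-sided, Het against WT gave p = 0.00433 at each, the smallest that 5 against 6 libraries allow (adjusted 0.0130 over 9 tests). At all_e14_peak_100018 the Het difference was -0.11 log2 (own SE 0.07, exact permutation p = 0.117, adjusted 0.175). The adjustment took variation out within genotypes, so these p-values may be too small. The limma SEs may also be too small at the highest levels. Their median for Het minus WT was 0.0451 log2 between 80 and 160 CPM and 0.0386 log2 above 160 CPM. The median SD within genotypes went the other way, from 0.0796 to 0.104 log2.

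The highest regions also varied together from library to library. Within genotypes, 7 regions, all among the 11 highest, deviated with all_e14_peak_129882 at r of at least 0.9, itself included, across the 17 libraries. All 7 were called higher in Het, by 0.26 to 0.38 log2, so these calls are not independent of each other. Together they held 0.800% ± 0.0484 (SD) of the summed CPM of the 6 WT libraries, 1.02% ± 0.0613 of the 5 Het libraries and 0.869% ± 0.0588 of the 6 Hom libraries. WT ranged from 0.752% to 0.875% and Het from 0.951% to 1.09%, without overlap. The level of all_e14_peak_219920 stayed at 0.648 to 0.754 of that of all_e14_peak_129882 in all 17 libraries, and that of all_e14_peak_66901 at 0.357 to 0.385. By contrast all_e14_peak_100018 varied from 0.281 to 0.507 of it, with r = -0.21. The median r with all_e14_peak_129882 was 0.59 for the 32 rises, -0.05 for the 56 falls and 0.04 for all 10790 regions.

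By number, 14 of the 32 rises lay between 230012 and 230308, linked by gaps of at most 100 numbers. That stretch held 19 of the most open regions, of which 16 had a Het minus WT difference above 0 and none was called lower. Over all 10790 regions 88.0% were below 0. The stretch was drawn around the called rises, so a high share above 0 follows in part from that choice. It held 141 tested regions, and the differences at those outside the most open regions are not given here. The median of the 19 was 0.31 log2 for Het minus WT and 0.08 log2 for Hom minus WT. Another 8 rises lay within 100 numbers of one another elsewhere, among them the 4 regions numbered 129879 to 129882. None of the 56 falls lay within 100 numbers of another fall. How often regions in general lie so close to one another is not given here, so these counts have no background. Whether rises and falls differ in this was not tested. Nothing in the files says what order the numbers follow.

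**Figure D5:**
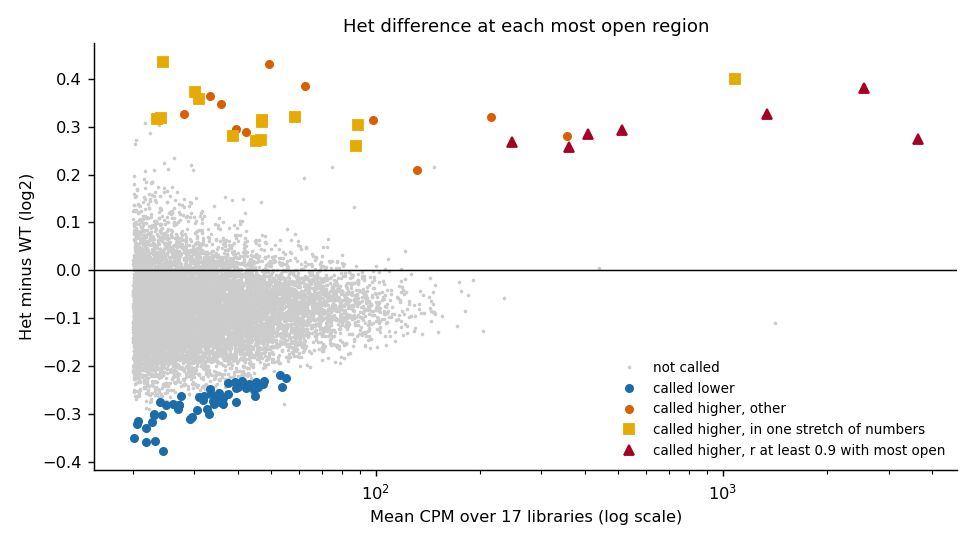
Het minus WT difference (y axis, log2) against mean level in CPM (x axis, log scale) for each of the 10790 regions. Blue points mark the 56 falls, none above 55.2 CPM; squares mark the 14 rises in one stretch of numbers, triangles the 7 regions that vary with the highest one, and orange points the remaining rises.

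Hom libraries differed from WT at none of the most open regions in the limma fit. None of all 138760 tested regions was called in either direction (0% each). The smallest adjusted p among the most open regions was 0.688, and 785 of them (7.28%) had an unadjusted limma p under 0.05, against 5.74% of all tested regions. Of these 785, 681 were lower and 104 higher in Hom. The median difference was -0.03 log2 (-0.01 over all tested regions), and it was below 0 at 7316 regions (67.8%, against 51.7%). Within litter 1 the median was -0.04 log2 and within litter 2 it was -0.00038 log2. Every Hom library lay below every WT library at 97 regions (0.899%, against 0.324% of tested regions) and above at 8 (0.0741%, against 0.241%). The region nearest to a call that was lower in Hom was all_e14_peak_90820. It ranged from 65.2 to 72.4 CPM in WT with a median of 67.7, from 57.2 to 64.5 in Het, and from 55.3 to 67.6 in Hom with a median of 57.3. The difference was -0.21 log2 (SE 0.05, limma adjusted p = 0.705), with 1 Hom library inside the WT range. The nearest higher one was all_e14_peak_219920, at 0.14 log2 (SE 0.03, limma adjusted p = 0.688; exact permutation p = 0.0368, adjusted 0.0662). Other settings gave a few calls. Litter 2 alone, fitted without the removed directions as covariates, gave 5 rises (0.0123% of all tested regions called higher). Litter 1 alone, fitted with them, gave 1 fall (0.00144% called lower). Removal of the level trend gave 1 rise (0.00144% called higher), as did leaving out Hom replicate 40 (0.000721%). In litter 2 alone 5.17% of the most open regions had an unadjusted p under 0.05, against 6.27% of all tested regions.

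Set directly against Het, Hom libraries had more signal at most of these regions and less at several of the highest ones. The Het libraries enter both this comparison and that of Het with WT. The median Hom minus Het difference was 0.05 log2 (0.01 over all tested regions), and it was above 0 at all but 1872 regions (17.3%, against 47.6% at or below 0 over tested regions). Hom was called lower at 11 regions and higher at 0, where 0.0101% and 0.00288% of all tested regions were called. The largest of the 11 falls was at all_e14_peak_232652, by 0.30 log2 (-0.30, SE 0.06, limma adjusted p = 0.0203), with the library values given above. The next was at all_e14_peak_230140, where Het libraries were at 87.2, 93.9, 100.2, 115.5 and 115.8 CPM and Hom libraries ranged from 69.8 to 97.1 CPM with a median of 83.7. WT libraries ranged from 75.4 to 93.8 CPM there, and Het overlapped both. Its difference was -0.29 log2 (SE 0.06, limma adjusted p = 0.0317). In 30 alternatives it was called in 11 (adjusted p 0.000143 to 0.806), and all_e14_peak_232652 in 19 (adjusted p 1.18e-05 to 0.647). Within single litters all_e14_peak_232652 was not called (adjusted p = 0.414 in litter 1 and 0.519 in litter 2).

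Of the 11 falls, 9 were above 160 CPM, where 20 of the most open regions lie. The limma SEs may be too small at that level, as said above. At all_e14_peak_129882 Hom was lower than Het by 0.18 log2 (-0.18, own SE 0.06, exact permutation p = 0.00866, adjusted 0.0195), and at all_e14_peak_219920 by 0.24 log2 (-0.24, own SE 0.07, exact permutation p = 0.00433, adjusted 0.0130). The nearest to a call in the other direction was all_e14_peak_207628, with 27.3, 28.3, 29.0, 29.5 and 29.5 CPM in Het and 32.3 to 36.0 CPM in Hom, without overlap (0.25 log2, SE 0.06, limma adjusted p = 0.165). WT ranged from 32.6 to 38.2 CPM there. Over all the most open regions, every Hom library lay above every Het library at 259 (2.40%, against 0.757% of tested regions) and below at 19 (0.176%, against 0.664%). An unadjusted p under 0.05 occurred at 1485 of them (13.8%, against 7.36% of tested regions), of which 1409 were higher in Hom. That excess was absent on the other scales, which equalise levels by construction. The share was 6.39% with quantile normalization (against 6.79%) and 6.39% with the level trend removed (against 6.62%). The count of 11 was 2 with the robust prior (0.00288% of tested regions called lower) and 0 without moderation or without the variance trend. It was 2 without Het replicate 64 and 4 without Hom replicate 40 (0.00432% of tested regions called in either direction each). It was 5 without Het replicate 31 or Hom replicate 54 and 6 without Het replicate 34 (0.00649% each), and 6 without Hom replicate 20 (0.00577%). Quantile normalization gave 22 falls and 1 rise (0.0216% and 0.00577% of tested regions), and removal of the level trend gave 32 falls (0.0288%). Only 3 of the 11 regions were among the calls after quantile normalization, so most of those were other regions. With the level trend removed all 11 were still called.

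The most open regions were spread along the whole list of numbers. In 10 equal stretches of region numbers they made up 4.45% to 5.97% of the regions. They nevertheless tended to sit beside each other. Of 10728 with a neighbouring number in the table, 2124 (19.8%) had another of them as a neighbour, against 9.53% of all regions. The widths behind the numbers are unknown, and the part that splitting of broad open stretches plays was not tested.

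In the adult prefrontal cortex the same rule took 7412 of 237287 regions, which held 25.7% ± 0.508 (SD) of the summed CPM in 6 WT libraries and 25.1% ± 0.510 in 6 Het libraries. The tables of both tissues number their regions separately, so no region was matched. In the adult fit, with sex and the 3 directions removed there as covariates, limma called 2 of the 7412 regions higher and 1 lower in Het. Over all adult regions tested 0.00982% were higher and 0.00405% lower. Without the removed directions as covariates there were 7 higher and 68 lower (0.214% and 0.250% of all adult regions tested). The median Het minus WT difference was -0.05 log2 at these regions and -0.01 log2 over all adult regions tested. Whether the Het difference at the most open regions differs between the tissues was not tested.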

How the data were processed

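The authors deposited log2 CPM per numbered region after RUVr, a correction that removes factors estimated from residuals, as the table's name states. The submitters' processing notes list the build mm10 and, with no role, the tools HTSeq, STAR, Bowtie2 and Trimmomatic. Peak caller and number of factors: not given in the sources used here. Columns were matched to libraries by their labels, and 0 value columns were left out.

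Regions that averaged 1 CPM or more were tested with limma 3.58.1 in R 4.3.3 (empirical Bayes trend, Benjamini-Hochberg, adjusted p under 0.05) over all 17 libraries. Within genotypes, 3 directions among libraries held almost no variation (root mean square 0.0121 to 0.0157 log2, against 0.266 to 0.324 in the other 11). They were taken as removed by the adjustment and entered as covariates, leaving 11 residual degrees of freedom. The fit was tested on simulated data. The members and the lists were chosen with earlier results of these data known. Regions were named by rule: the 3 highest, the 2 most variable, the 4 nearest 20 CPM, and per comparison up to 2 called rises and 2 falls, or else the region with the smallest p in that direction. Others named were chosen after their values were seen. The tests gave adjusted p-values over all tested regions. Library numbers are not shared between genotypes, and litter served as a block in an alternative. Litter 2 alone was fitted without the removed directions as covariates. The sequencing depth is unknown, so errors are those seen between libraries.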

Additional observations from a re-analysis of the deposited data

Results flagged for a closer look

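Single libraries stood far from the others of their genotype in 3 of 54 groups of values checked, where chance gives about 1 in 20, or 2.7. Hom replicate 6 was the highest library at both of the most variable regions, with 55.5 CPM at all_e14_peak_235842, where the other Hom libraries were at most 23.6 CPM, and 63.2 CPM at all_e14_peak_235820. These regions vary together, so the flags are not independent. At all_e14_peak_138225, on the edge of the rule, the highest Het library was at 19.2 CPM and the others at 17.3 to 17.8 CPM.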

How the results depend on the processing

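The median Het minus WT difference, -0.08172 log2 in the reported fit, depended on the scaling. In all alternatives that kept the deposited scaling it ran from -0.0954 to -0.05343 log2. It shrank to -0.003273 log2 with quantile normalization and -0.0002323 with the level trend removed. Without that trend the median went to 0.0006898 for Hom minus WT and -0.0001997 for Hom minus Het, both of opposite sign, and quantile normalization gave 0.001059 for Hom minus Het. Those scalings equalise levels by construction. Het calls numbered 576 without covariates for the removed directions, 335 with a filter at 5 CPM (42 higher, 293 lower) and 58 with no filter (30 higher, 28 lower), 49 with quantile normalization, 51 with the level trend removed, 12 in litter 2, 36 at a rule of 40 CPM, and 0 without the variance trend or without moderation. Leaving out single libraries gave 42 to 268. Hom calls, 0 in the reported fit, numbered 1 in litter 1, 5 in litter 2 and 1 with the level trend removed, and 0 to 1 when single libraries were left out. Calls of Hom against Het numbered 1 in litter 2, 3 with the filter at 5 CPM, 23 with quantile normalization, 32 with the level trend removed, 2 with the robust prior and 0 without the variance trend or moderation, and 2 to 12 without single libraries. Except where stated, the cause was not tested. At a rule of 10 CPM the share of signal was 59.6% in WT, 58.3% in Het and 59.2% in Hom, and at 40 CPM 19.2%, 18.9% and 19.2%; quantile normalization put Het at 39.8%. No paired analysis was possible because the genotypes share no library numbers. A block for litter left 74 calls in Het, all of them among the 88. Of the 88, quantile normalization kept 28 and removal of the level trend 35.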

Other observations

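Besides the regions at the end of the list, 3 of the most variable regions, numbered 230802, 230957 and 234801, ranged from 34.5 to 75.4, from 72.9 to 140.1 and from 20.9 to 42.1 CPM over the 17 libraries. The pair 117547 and 117519 ranged from 27.4 to 52.8 and from 29.0 to 55.1 CPM. Their SD within genotypes was 0.318 to 0.407 log2, against a median of 0.0949 for the most open regions. They were singled out after their values were seen.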
